A study of Mus musculus with 8 samples.

Results

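Transcript levels of 34 genes of the autophagy machinery and its cargo receptors were examined in RAW264.7 cells, an established mouse macrophage-like line. The genes were chosen by name, from the ULK1 initiation complex through the lipid kinase and conjugation steps to the cargo receptors, and all 34 were found among the 55450 genes of the deposited table. Total RNA was sequenced in 8 libraries, which the labels place in 4 groups. In 3 libraries the cells carried a non-silencing shRNA (shNS) and in another 3 an shRNA against Dis3l2 (shDis3l2), and all 6 of these cultures received doxycycline at 1 µg/mL for 4 days. The remaining 2 libraries are 1 of each line grown for 4 days without doxycycline. Doxycycline is widely used to switch on an integrated shRNA. Dis3l2 encodes an exoribonuclease that degrades RNAs with a uridine tail. Each shRNA is represented by 1 line, so a difference between the lines and an effect of the shRNA cannot be told apart in these libraries. Nothing in the labels states that replicates were separate cultures, so the p-values below measure the spread between these libraries, which may be technical.

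Autophagy encloses cytoplasm in a double membrane, the autophagosome, and delivers it to the lysosome. The ULK1 kinase complex starts the process, a class III phosphatidylinositol 3-kinase marks the growing membrane with the lipid PI3P, and PI3P-binding WIPI proteins, the lipid transfer protein ATG2 and the scramblase ATG9 supply it. A pair of ubiquitin-like conjugation pathways then attaches ATG8 proteins (the LC3 and GABARAP families) to the membrane, where receptors such as p62 dock their cargo. Macrophages use the same conjugation machinery to handle engulfed material and intracellular bacteria. Transcript levels do not measure autophagic flux, which depends largely on protein modification and turnover.

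Library totals ran from 30341847 to 45557831 expected counts, with 17388 to 18267 genes detected, and the 34 genes held 0.143 to 0.200% of a library's counts. Dis3l2 itself stood at 33.0, 28.7 and 22.0 CPM in the shNS libraries with doxycycline and at 12.0, 13.5 and 14.9 CPM in the shDis3l2 libraries with doxycycline (CPM, counts scaled to a common library size after TMM normalization). This was a fall to 48.3% of shNS (edgeR adjusted p = 0.0216). Without doxycycline it stood at 29.7 CPM in shNS and 28.6 CPM in shDis3l2. One library stood apart: over all genes, shNS replicate 2 correlated with the shNS library without doxycycline at r = 0.984 and with shNS replicates 1 and 3 at 0.939 and 0.945, as a description of these libraries. Each of the 10 macrophage markers checked had counts, with a summed level of 8039 to 11955 CPM in shNS and 7019 to 9795 CPM in shDis3l2 with doxycycline. Of these 10, 6 had a positive and 4 a negative fold change, with a median of 0.16 on the log2 scale, and 1 was called: Adgre1, which encodes F4/80, fell to 15.4% of the shNS level (edgeR adjusted p = 0.0368). Every shDis3l2 library with doxycycline was above every shNS library for Csf1r (143% of shNS), Itgam (149.8%) and Fcgr1 (143%), none of them called. Cd68 was at 61.3% and Lyz2 at 60.7% of shNS with doxycycline, with the lines overlapping and neither called. Mertk, a receptor for apoptotic cells, stood at 0.598, 41.5 and 0.892 CPM in shNS with doxycycline and 46.6 CPM in shNS without it, and had no counts in any shDis3l2 library (edgeR adjusted p = 0.209). Its high values were thus those of shNS replicate 2 and the shNS library without doxycycline. The 6 osteoclast markers summed to 15.8 to 109 CPM in shNS and 22.9 to 44.7 CPM in shDis3l2 with doxycycline, with 1 of the 6 at 0 everywhere. Most of the shDis3l2 sum was Dcstamp, at 37.1, 17.4 and 18.6 CPM with doxycycline. In shNS with doxycycline Dcstamp ranged widely, at 7.12, 0.380 and 59.7 CPM, and it was not called. Within the osteoclast sum Ctsk fell to 1.26% of shNS (edgeR adjusted p = 0.0359), while Ocstamp was at 525% of shNS with the lines not overlapping and was not called (edgeR adjusted p = 0.174). Among the 4 fibroblast markers 2 were at 0 in every library and the sum reached at most 1.18 CPM, the 4 T cell markers reached at most 0.259 CPM and the 3 B cell markers at most 0.0584 CPM, and the 4 epithelial markers were at 0 throughout. The part of these marker differences in the values below was not tested, and in bulk RNA fewer cells of a type and less RNA per cell cannot be told apart.

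With doxycycline, most autophagy genes differed little between the lines, and 2 fell in shDis3l2. These were Atg7, the E1-like enzyme that activates both ATG12 and the ATG8 proteins, and Bnip3l, which encodes the mitophagy receptor NIX. No autophagy gene was called higher. In all, 33 of the 34 genes passed the low-count filter, Optn being the exception, and 2 of 33 were called by edgeR's quasi-likelihood test at an adjusted p below 0.05. Among all 13752 genes tested 6.14% were called, 2.13% higher and 4.01% lower in shDis3l2, so the count of autophagy genes lay near the share of all genes. The unadjusted edgeR p was below 0.05 for 8 of the 33, beside 2864 of all 13752 genes tested. Fold changes of the 33 genes ran from -1.87 to 0.40 on the log2 scale with a median of -0.13, and 23 were negative and 10 positive. Over all genes tested the median was -0.00, with 6911 negative and 6841 positive values. By step, the median was -0.07 for the ULK1 complex, -0.21 for the class III kinase complexes, -0.05 for membrane supply and PI3P readers, -0.11 for the conjugation enzymes, -0.31 for the ATG8 family and -0.57 for the 4 cargo receptors tested.

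**Figure D1:**
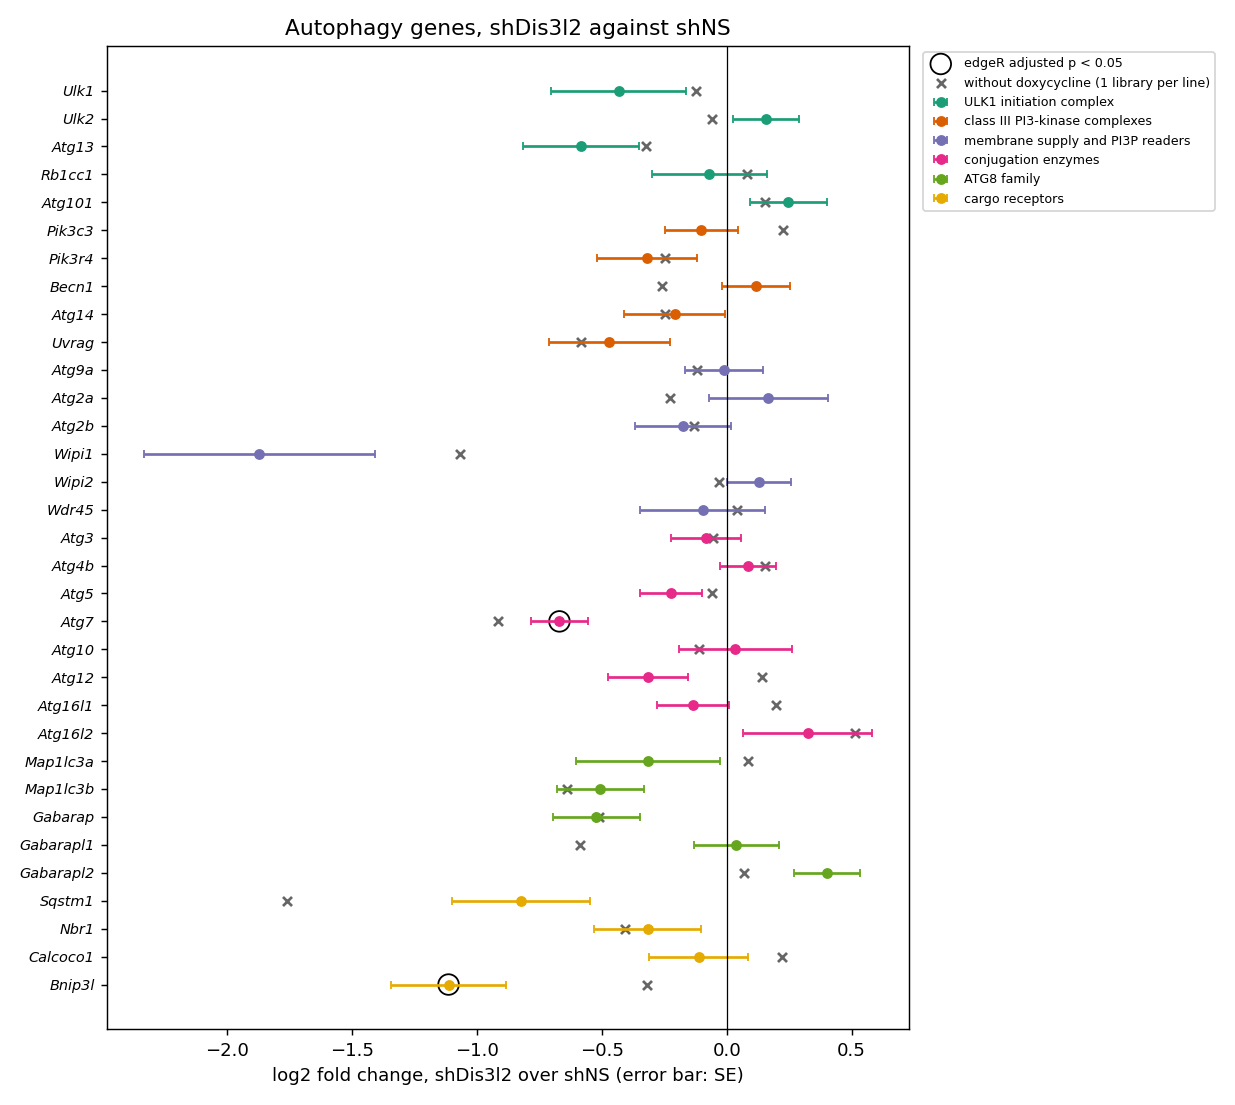
Log2 fold change of shDis3l2 over shNS for the 33 autophagy genes tested, in order of the pathway; points and bars are the edgeR estimate and its SE with doxycycline (3 libraries per line), crosses the log2 ratio of the 2 libraries without doxycycline, and circles an adjusted p below 0.05. Atg7 and Bnip3l carry circles, and Wipi1 lies farthest to the left at -1.87.

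All 3 shDis3l2 libraries with doxycycline lay outside the range of the 3 shNS libraries for 9 of the 34 genes. Optn and Gabarapl2 lay above it, and Wipi1, Atg5, Atg7, Atg12, Map1lc3b, Gabarap and Bnip3l lay below. Over all genes tested, which do not include Optn, the groups failed to overlap for 27.7%, with shDis3l2 above for 13.2% and below for 14.6%. The lines overlapped for the other 25 autophagy genes.

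Levels between genes were compared per kilobase of merged exon. This length counts every annotated exon of a gene, used in these cells or not, so the order of genes depends on the annotation. In shNS with doxycycline the highest were Sqstm1, which encodes the receptor p62, at 97.1 CPM per kilobase, and Gabarap at 86.8. Bnip3l followed at 38.5, Atg13 at 18.3 and Uvrag at 17.6. In shDis3l2 with doxycycline Gabarap stood at 60.4 and Sqstm1 at 54.7 CPM per kilobase, and Gabarapl2 at 18.9 was above Bnip3l at 17.8. The order of Sqstm1 and Gabarap is within the spread of Sqstm1 over libraries, which ran from 204 to 419 CPM in shNS before division by length. The lowest tested gene was Wipi1, at 0.522 CPM per kilobase in shNS and 0.143 in shDis3l2 with doxycycline.

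**Figure D2:**
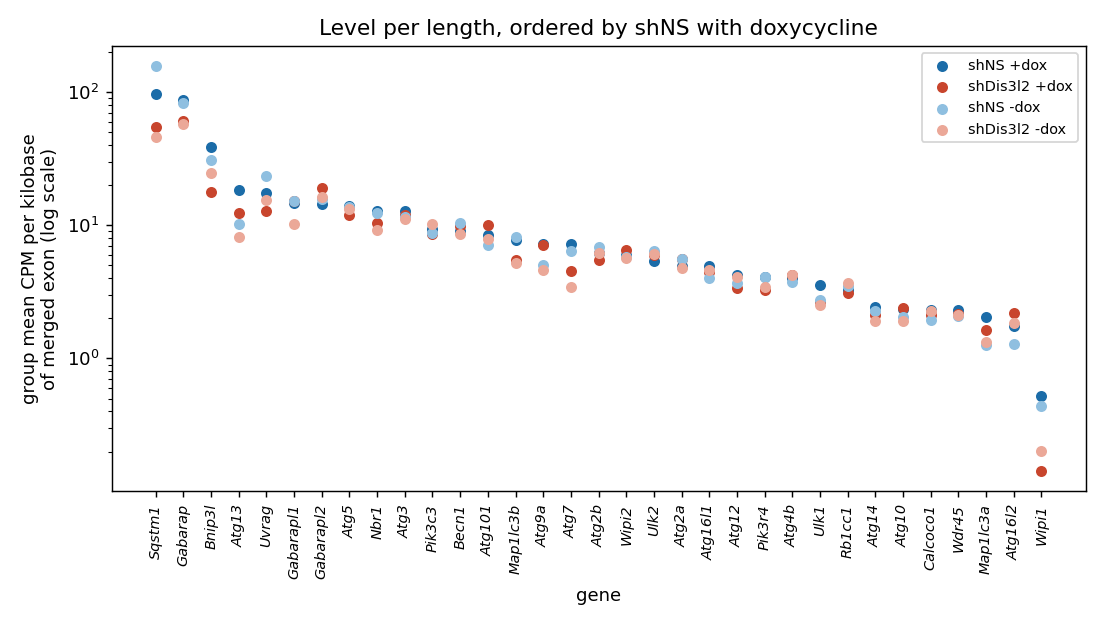
Group mean level of each autophagy gene in CPM per kilobase of merged exon, on a log scale, ordered by shNS with doxycycline; each dot is 1 group (3 libraries with doxycycline, 1 without). Sqstm1 and Gabarap head the order, Wipi1 ends it, and Optn is left out because it is at 0 in shNS.

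Within the ULK1 initiation complex no gene passed the test. Atg13, which encodes the subunit that links the kinase to its scaffold, stood at 94.8, 66.4 and 79.2 CPM in shNS and at 71.6, 43.0 and 45.9 CPM in shDis3l2 with doxycycline, and at 44.6 and 35.7 CPM in the shNS and shDis3l2 libraries without it. The groups overlapped through shDis3l2 replicate 1, and both libraries without doxycycline were below every shNS library that received it. Its fold change was -0.58 on the log2 scale (SE 0.23, edgeR adjusted p = 0.209). Ulk1, the kinase, ranged from 14.7 to 30.3 CPM in shNS and from 15.2 to 20.1 CPM in shDis3l2, with a fold change of -0.43 (SE 0.27). For its paralog Ulk2 the value was 0.16 (SE 0.13), for the scaffold Rb1cc1 (FIP200) -0.07 (SE 0.23) and for Atg101, the partner of ATG13, 0.25 (SE 0.15). These 4 differences were each smaller than 2 times their SE, and only that of Atg13 was larger.

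No gene of the class III kinase complexes passed either. Pik3c3, the catalytic subunit VPS34, had a fold change of -0.10 (SE 0.15), and Becn1, the regulatory subunit Beclin 1, of 0.12 (SE 0.14). Pik3r4, the VPS15 subunit, was at -0.32 (SE 0.20) and Atg14, which directs the kinase to the forming autophagosome, at -0.21 (SE 0.20). Uvrag, the subunit found in ATG14's place on endosomes, varied most: it stood at 144, 219 and 113 CPM in shNS and at 110.3, 108 and 125 CPM in shDis3l2 with doxycycline, and at 209.8 CPM in shNS and 140.0 CPM in shDis3l2 without it. The high values were those of shNS replicate 2 and the shNS library without doxycycline, the same pair that correlated over all genes. Over these 6 libraries the Uvrag estimate came to -0.47 (SE 0.24, edgeR adjusted p = 0.333), or -0.16 without shNS replicate 2. With shNS replicate 2 as the lone control it was -0.91, in a fit chosen after seeing the data. Of the shNS libraries with doxycycline that replicate has the highest Uvrag level, so a larger fall was built into this fit.

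Among the genes of membrane supply and PI3P reading, Wipi1, a PI3P-binding propeller protein recruited to the forming membrane, had the largest fold change of all 33 genes but low counts, from 16 to 100 per library. It stood at 3.15, 2.49 and 1.27 CPM in shNS and at 0.503, 0.467 and 0.916 CPM in shDis3l2 with doxycycline, so all shDis3l2 values were below all shNS values. Mean levels were 2.30 ± 0.955 CPM in shNS against 0.629 ± 0.2495 CPM in shDis3l2 (SD, n = 3). The fold change of -1.87 (SE 0.46) did not pass the test (edgeR adjusted p = 0.0613), and it did without shNS replicate 3, at -2.17 with an edgeR adjusted p of 0.0394. The related readers Wipi2 and Wdr45 were at 0.13 (SE 0.13) and -0.10 (SE 0.25). Atg9a, the scramblase, was at -0.01 (SE 0.16), a value that becomes 0.03 when libraries are scaled by their totals alone. The lipid transfer genes Atg2a and Atg2b were at 0.17 (SE 0.24) and -0.17 (SE 0.19). Wipi1 was thus the only one of these 6 genes whose lines did not overlap.

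Of the 8 conjugation genes Atg7 fell. The Atg7 libraries stood at 49.1, 50.9 and 50.3 CPM in shNS and at 33.2, 30.2 and 31.1 CPM in shDis3l2 with doxycycline, and at 45.0 CPM in shNS and 23.8 CPM in shDis3l2 without it. Replicates were close together, and every shDis3l2 library lay below every shNS library, with or without doxycycline. Group means with doxycycline were 50.1 ± 0.917 CPM for shNS against 31.5 ± 1.53 CPM for shDis3l2 (SD, n = 3), which is 62.8% of shNS. The log2 fold change of Atg7 was -0.67 with an SE of 0.11 (edgeR adjusted p = 0.0179). The size moved little when single libraries were left out, from -0.71 to -0.62. The adjusted p rose to 0.128 without shDis3l2 replicate 2 and 0.102 without shDis3l2 replicate 3 (edgeR), fits in which all calls over the genome were also fewer, 203 and 259 genes in place of 845. Without shNS replicate 2 the fold change was -0.66 (edgeR adjusted p = 0.038). Atg7 lies at chr6:114643097-114860614 on the plus strand (GRCm38) and overlaps 3 other annotated genes on that strand. Reads could in principle be divided among them, but the Atg7 counts included fractions of shared reads in 0 libraries. There were 19 tested genes within 1 Mb of it, of which 0 were called by edgeR, and their median fold change was -0.01.

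The other conjugation genes did not pass. Atg5, which is joined to ATG12 by the pathway that ATG7 starts, stood at 32.5, 29.7 and 36.1 CPM in shNS and at 28.8, 28.2 and 27.1 CPM in shDis3l2 with doxycycline. Its lines did not overlap, and its fold change of -0.22 (SE 0.13, edgeR adjusted p = 0.378) was small. Atg12, the ubiquitin-like partner, ranged from 28.2 to 38.5 CPM in shNS and from 23.7 to 28.0 CPM in shDis3l2, at -0.31 (SE 0.16, edgeR adjusted p = 0.331), while without doxycycline it was 1.10 times as high in shDis3l2. Atg10, the E2-like enzyme for ATG12, was at 0.04 (SE 0.23) and Atg3, the E2-like enzyme for the ATG8 proteins, at -0.08 (SE 0.14). Atg4b, the protease that primes the ATG8 proteins, was at 0.08 (SE 0.11). The scaffold Atg16l1 was at -0.13 (SE 0.14) and its paralog Atg16l2 at 0.33 (SE 0.26). Atg7 was therefore alone among the 8 in passing, although whether its change differs from that of the other enzymes was not tested.

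Because the MiT/TFE transcription factors (TFEB, TFE3 and MITF) drive many autophagy and lysosome genes through E-boxes, the promoters were searched for the letters CACGTG, which read the same on both strands, and for TCACGTG on either strand, which contains the former. RefSeq windows of 300 bases (250 before to 50 after a start, GRCm38.p6) were at hand for 27 of the 34 genes. Bnip3l, the other gene called, had no window and was not searched. Nor were Atg12, Atg16l1, Becn1, Map1lc3a, Pik3c3 and Rb1cc1. CACGTG was present for 4 of these 27 (14.8%), against 8.09% of all 27025 genes with such windows, and TCACGTG for 3 of 27 (11.1%), against 4.29%. The genes with CACGTG were Atg7, Atg3, Atg5 and Atg14, of which Atg7 alone was called. The stretches of Atg7 and Atg3 are shown as the gene that fell and a conjugation partner that did not pass, each 60 bases long, 5′ to 3′, with the CACGTG letters in capitals:
Atg7, chr6:114670937-114670996, plus strand: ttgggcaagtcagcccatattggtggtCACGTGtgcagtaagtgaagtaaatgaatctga
Atg3, chr16:45158708-45158767, plus strand: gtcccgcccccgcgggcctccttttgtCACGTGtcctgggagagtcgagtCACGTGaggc
The Atg7 match begins 132 bases before the RefSeq start, and the stretch shown and that start lie inside the GENCODE gene, which begins at 114643097. Atg3 has a pair of matches, beginning 94 and 71 bases before its start, and the stretch shown ends before the start of the GENCODE gene. The match begins 14 bases before the start in Atg5 and 1 base before it in Atg14. A match is a run of letters and not a measured binding site. The factors themselves were not called: with doxycycline the fold change was 0.41 for Tfeb (SE 0.26, edgeR adjusted p = 0.438), -0.12 for Tfe3 (SE 0.13) and 0.37 for Mitf (SE 0.25). Without doxycycline, with 1 library per line, the log2 ratio was 0.40 for Tfeb, -0.25 for Tfe3 and 1.17 for Mitf. Whether these factors act on the autophagy genes here was not tested.

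Within the ATG8 family no gene passed, and the members did not share a direction. Gabarap, the most abundant of them per length, stood at 142, 172 and 167 CPM in shNS and at 138, 98.8 and 97.6 CPM in shDis3l2 with doxycycline, and at 151 and 106 CPM in shNS and shDis3l2 without it. All shDis3l2 values were below all shNS values, with shDis3l2 replicate 1 close to the lowest shNS library. Its fold change was -0.52 (SE 0.17, edgeR adjusted p = 0.141). Map1lc3b, the LC3 protein used most often to mark autophagosomes, stood at 54.3, 68.1 and 52.7 CPM in shNS and at 49.1, 35.6 and 38.4 CPM in shDis3l2 with doxycycline, and at 61.1 and 39.2 CPM in shNS and shDis3l2 without it. It had the same arrangement as Gabarap, with a fold change of -0.51 (SE 0.17, edgeR adjusted p = 0.148). Gabarapl2 (GATE-16) was arranged the other way: 30.7, 34.4 and 35.0 CPM in shNS and 49.2, 43.1 and 39.7 CPM in shDis3l2 with doxycycline, a fold change of 0.40 (SE 0.13, edgeR adjusted p = 0.136). Without doxycycline Gabarapl2 stood at 36.4 CPM in shNS and 38.2 CPM in shDis3l2. Gabarapl1 was at 0.04 (SE 0.17) and Map1lc3a at -0.31 (SE 0.29), the latter with 54 to 108 counts per library.

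The balance between Gabarapl2 and Gabarap was set apart after its values were seen, so it is given without a test. The ratio of Gabarapl2 to Gabarap CPM was 0.216, 0.201 and 0.210 in shNS and 0.357, 0.436 and 0.406 in shDis3l2 with doxycycline, and 0.240 in shNS and 0.360 in shDis3l2 without it. Every shDis3l2 library was above every shNS library. Of the family's summed CPM per kilobase, Gabarap held 67.3 to 70.0% in shNS and 58.5 to 60.9% in shDis3l2 with doxycycline, and Gabarapl2 11.1 to 11.6% and 17.2 to 20.2%. The merged exons span 7517 bases for Map1lc3b and 1844 for Gabarap, so the sizes of these shares depend on the annotated lengths. Counts of Map1lc3b and Gabarapl2 included fractions of reads shared with other genes in 8 and 5 libraries, so their levels are estimates.

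**Figure D3:**
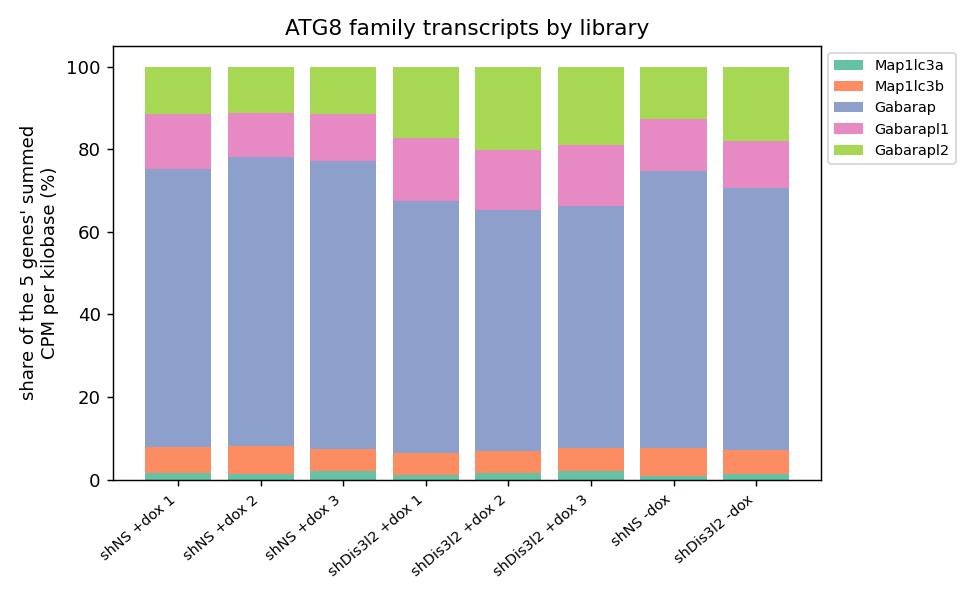
Share of each of the 5 ATG8 family genes in their summed CPM per kilobase of merged exon, in percent, for each of the 8 libraries. The Gabarapl2 share is 11.1 to 12.8% in the 4 shNS libraries and 17.2 to 20.2% in the 4 shDis3l2 libraries.

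Among the cargo receptors Bnip3l fell. It stood at 119.7, 206 and 119.6 CPM in shNS and at 69.1, 65.7 and 70.9 CPM in shDis3l2 with doxycycline, and at 119 CPM in shNS and 95.1 CPM in shDis3l2 without it. shNS replicate 2 was far above the other shNS libraries, and the shDis3l2 libraries with doxycycline lay below all the rest. Group means were 148 ± 49.8 CPM for shNS against 68.6 ± 2.68 CPM for shDis3l2 (SD, n = 3), which is 46.2% of shNS. The log2 fold change of Bnip3l was -1.11 with an SE of 0.23 (edgeR adjusted p = 0.0349). Without shNS replicate 2 the fold change was -0.80 (edgeR adjusted p = 0.0168). Leaving out shDis3l2 replicate 1, 2 or 3 gave edgeR adjusted p of 0.116, 0.162 and 0.125 at fold changes of -1.12, -1.07 and -1.12. Bnip3l lies at chr14:66985239-67008877 on the minus strand (GRCm38), its counts included fractions of shared reads in 8 libraries, and 9 neighbours within 1 Mb were tested with 0 called and a median of -0.00.

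Sqstm1 had the largest difference in CPM but the widest spread. It stood at 204, 355 and 419 CPM in shNS and at 223, 154 and 174 CPM in shDis3l2 with doxycycline, and at 524 CPM in shNS and 155 CPM in shDis3l2 without it. The groups with doxycycline overlapped, since shNS replicate 1 lay below shDis3l2 replicate 1. Mean levels were 326 ± 111 CPM for shNS against 184 ± 35.5 CPM for shDis3l2 (SD, n = 3). The fold change of -0.82 (SE 0.28) did not pass (edgeR adjusted p = 0.144), and without shNS replicate 1 it was -1.05 with an edgeR adjusted p of 0.0258. Sqstm1 overlaps Mrnip on the other strand. Nbr1, a ubiquitin-binding receptor related to p62, was at -0.32 (SE 0.22), and Calcoco1, a receptor for endoplasmic reticulum and Golgi, at -0.11 (SE 0.20). Optn, which encodes the receptor optineurin, was near the limit of detection: it had 0 counts in all 4 shNS libraries, and 6, 3 and 7 counts in shDis3l2 with doxycycline and 2 without. A count of 0 allows up to 3 counts, or 0.0824 to 0.0944 CPM in the shNS libraries, so the difference is within a few reads and no fold change is given.

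**Figure D4:**
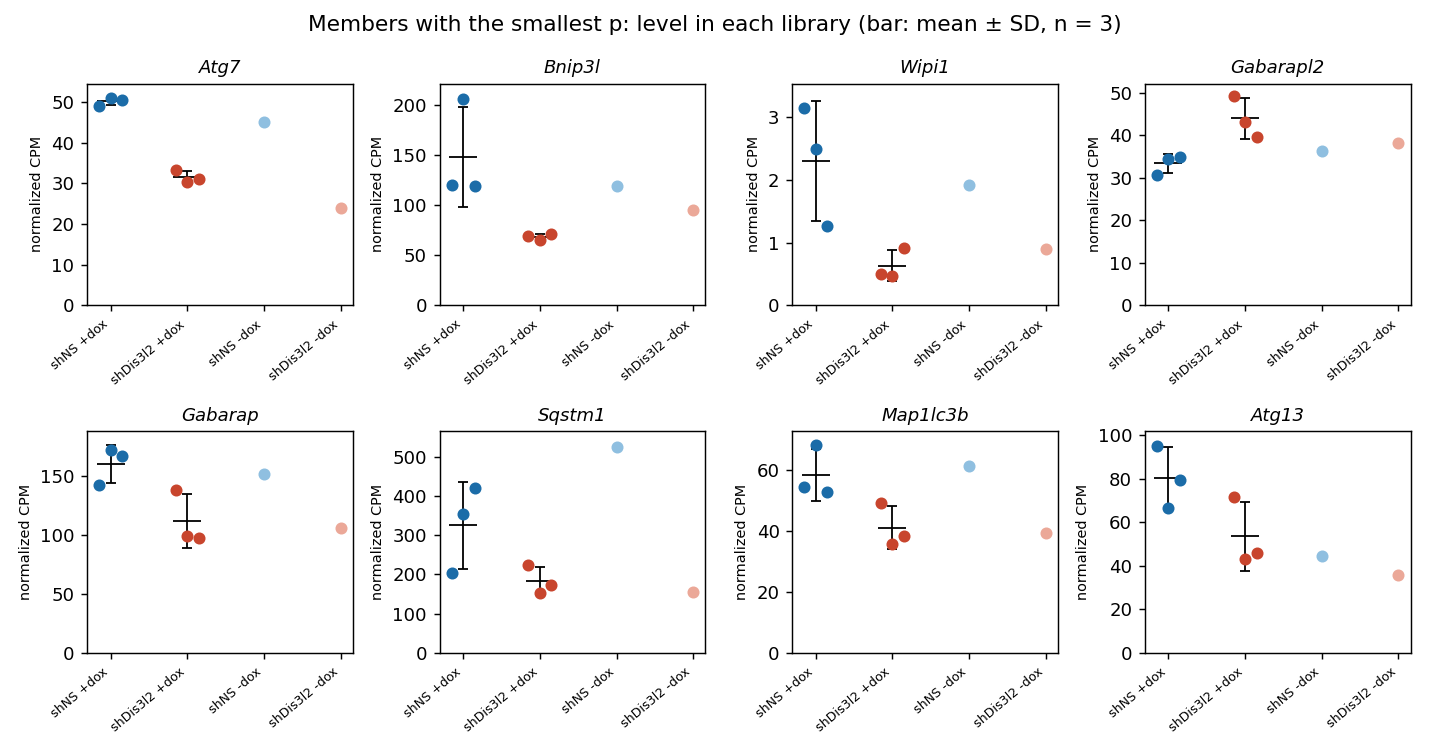
Level in CPM of the 8 autophagy genes with the smallest p, in each library; dots are single libraries and bars the mean ± SD of the 3 libraries with doxycycline. Atg7 and Bnip3l passed the test, and for Sqstm1 and Atg13 the dots of the lines overlap with doxycycline.

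The summed level of the 34 genes was 1763, 2039 and 1778 CPM in shNS and 1531, 1375 and 1453 CPM in shDis3l2 with doxycycline, and 2014 and 1410 CPM in shNS and shDis3l2 without it. A few abundant genes held most of this difference. Of the net difference in group means with doxycycline, -407 CPM, 77.3% came from Sqstm1 (-142), Bnip3l (-79.9), Gabarap (-48.7) and Uvrag (-44.1). These 4 were picked for the largest negative differences, so this share is a description.

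**Figure D5:**
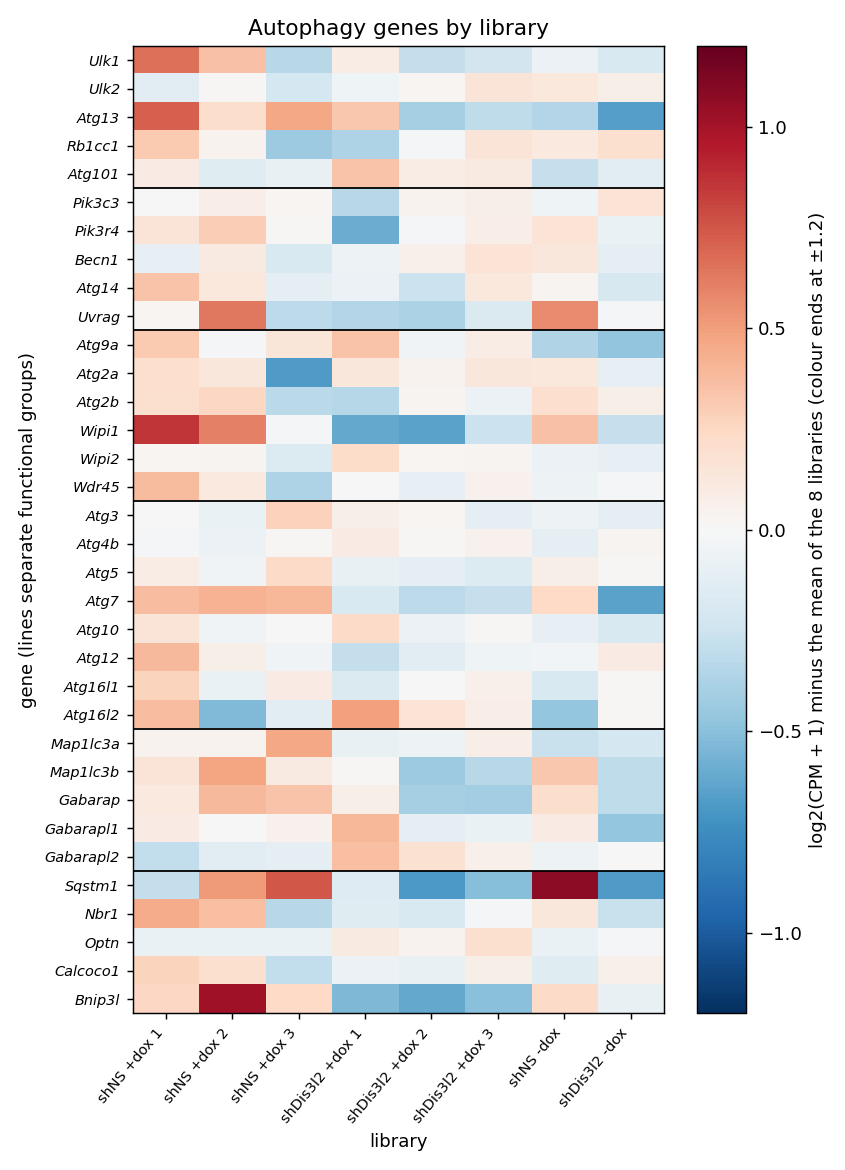
Level of each of the 34 autophagy genes in each library, as log2(CPM + 1) minus the gene's mean over the 8 libraries, with lines between the steps of the pathway. Atg7 and Bnip3l are high in shNS and low in shDis3l2 columns, Bnip3l and Uvrag are highest in shNS replicate 2, and Sqstm1 is highest in shNS without doxycycline.

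Without doxycycline, some of these genes differed between the lines as much as with it or more, and others less. Dis3l2 stood at nearly the same level in both lines there, and its part in these differences was not tested. There is 1 library per line, so these ratios have no replicate check, and their 95% intervals cover counting error only. The shNS library is the one that correlated with shNS replicate 2 over all genes. Sqstm1 was at 0.295 times the shNS level in shDis3l2 (0.287 to 0.304), Wipi1 at 0.463 (0.299 to 0.704) and Atg7 at 0.530 (0.488 to 0.574). Map1lc3b was at 0.641 (0.600 to 0.685), Gabarap at 0.701 (0.673 to 0.730) and Bnip3l at 0.801 (0.766 to 0.837). Atg13 was at 0.800 (0.745 to 0.860) and Gabarapl2 at 1.05 (0.973 to 1.13). Sqstm1, Atg7 and Map1lc3b differed more than with doxycycline, Gabarap about as much, and Bnip3l, Wipi1, Atg13 and Gabarapl2 less. Gabarapl1, which differed little with doxycycline, was at 0.664 (0.606 to 0.728). The median log2 ratio of the 33 genes was -0.12, against -0.00 for all 15250 genes, with 22 negative and 11 positive. Sqstm1 and Wipi1 exceeded a 2-fold difference, as did 3156 of all 15250 genes. The 8 genes with the smallest p with doxycycline all had the same sign without it, and 20 of the 33 did (60.6%), against 68.5% of all genes.

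No autophagy gene passed the test's threshold for an effect of doxycycline, and neither did Dis3l2, at -1.09 on the log2 scale (SE 0.25) in shDis3l2. A lack of calls here thus does not show that no gene responded. In the fit of all 8 libraries, where each lone library is assumed to vary like the others, edgeR called 0 of the 33 genes in shNS, 0 in shDis3l2 and 0 for the difference between these effects, as it did for all 15250 genes (0% called in each). DESeq2 also called 0 of the autophagy genes in each. At an unadjusted p below 0.05 there were 1 in shNS, 2 in shDis3l2 and 0 for the difference, and 646, 504 and 577 among all genes. The one in shNS was Atg13, at 0.85 on the log2 scale (SE 0.35), and those in shDis3l2 were Atg9a at 0.64 (SE 0.23) and Atg7 at 0.40 (SE 0.16). For Atg7 the difference between the effects of doxycycline in the lines was 0.25 (SE 0.22) and for Bnip3l -0.79 (SE 0.46), with edgeR adjusted p of 1.00 for both. The effect of doxycycline on Bnip3l was 0.32 (SE 0.33) in shNS and -0.47 (SE 0.31) in shDis3l2.

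When line and doxycycline were fitted as additive terms over the 8 libraries, an alternative chosen after seeing the data, the line term called 4 autophagy genes, all lower in shDis3l2, against 9.7% of all 15250 genes. These were Atg7 at -0.73 (edgeR adjusted p = 0.00462), Bnip3l at -0.92 (0.0399), Wipi1 at -1.68 (0.035) and Map1lc3b at -0.54 (0.0492). DESeq2 on the 6 libraries with doxycycline also called 4, again all lower, against 12.7% of 13752 genes, with Wipi1 (DESeq2 adjusted p = 0.00472) and Sqstm1 (0.037) beside Atg7 and Bnip3l.

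Other genes of the pathway, in lists outside the 34, showed the same pattern of few calls, all lower in shDis3l2, beside the 4.01% of all genes called lower. Of 14 further core genes tested 1 was called lower and 0 higher, with a median of -0.22. This was Tecpr1, a tether between autophagosome and lysosome, which stood at 66.6, 125 and 64.6 CPM in shNS and 27.4, 15.2 and 15.6 CPM in shDis3l2 with doxycycline with a log2 fold change of -2.14 and an SE of 0.36 (edgeR adjusted p = 0.0202). Of 14 further receptors 1 was called lower and 0 higher, with a median of -0.05. This was Bnip3, the closest relative of Bnip3l and also a mitophagy receptor, at 222, 193 and 318 CPM in shNS and 39.9, 19.5 and 19.7 CPM in shDis3l2 with doxycycline. Bnip3 fell by 3.21 (SE 0.36, edgeR adjusted p = 0.00558), yet without doxycycline it stood at 46.5 CPM in shNS and 61.9 CPM in shDis3l2. Of 23 regulators 1 was called lower and 0 higher, with a median of -0.12. This was Trp53inp2, a nuclear protein that moves to autophagosomes and binds ATG8 proteins, which fell by 1.88 (SE 0.30, edgeR adjusted p = 0.0168). None of the 12 fusion genes passed in edgeR, with a median of -0.16. Their unadjusted edgeR p was below 0.05 for 3, beside 2864 of all 13752 genes tested.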

How the data were processed

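RNA from 8 libraries was sequenced as 150 nt pairs after ribosomal RNA removal with a stranded kit, per the labels' protocols. The tools cutadapt, STAR 2.7 and RSEM and the build GRCm38 are listed in the submitters' processing notes. Annotation release and strand setting: not given in the sources used here. Gene-level expected counts from RSEM were deposited by the authors, without normalization. All identifiers matched GENCODE M21, which gave symbols and coordinates. RSEM divides shared reads: 5 of the 34 genes had fractional counts, and 18 overlap another annotated gene, with reads that cannot be told apart where strand was not used. Counts were rounded.

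Genes passed edgeR's filterByExpr (minimum count 10), libraries were scaled by TMM, and edgeR's quasi-likelihood test was two-sided with Benjamini-Hochberg adjustment over all genes (R 4.3.3, edgeR 4.0.16, threshold 0.05). The fit of the 6 doxycycline libraries had 4 residual degrees of freedom, as did that of all 8. Libraries without doxycycline were compared by log2 ratio (prior count 2). Depth (30341847 to 45557831 counts) limits genes of few counts. The procedure was tested on simulated data. Alternatives were other scalings and filters, DESeq2 1.42.0, limma-voom (limma 3.58.1), a replicate block, all 8 libraries and leaving out single libraries; 2 more were added after seeing the data.

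The members and lists were chosen with earlier results of these data known. Full statistics go to members past the threshold and to those with the smallest p, up to 8; of other lists, members past the threshold are named. Uvrag, Optn, Tfeb, Tfe3, Mitf and the ATG8 ratio were singled out after their values were seen. No replicate pair agreed within counting noise (chi-square per gene at least 17.8).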

Additional observations from a re-analysis of the deposited data

How the results depend on the processing

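In every setting run, 0 autophagy genes were called higher in shDis3l2 with doxycycline. The number called lower was 2 in edgeR and stayed at 2 with scaling by library size alone or by DESeq2's size factors, without the low-count filter, with a 1 CPM filter, in limma-voom and over all 8 libraries. Over all genes these settings called 743 to 860. The number of autophagy genes called lower was 4 with DESeq2 and 4 with line and doxycycline as additive terms, beside 1749 and 1480 calls over all genes. It was 0 to 3 when single libraries were left out, beside 203 to 1157 calls over all genes. The replicate number as a block gave 0, with edgeR adjusted p of 0.0747 for Atg7 and 0.0816 for Bnip3l and 421 calls in place of 845 over all genes. The labels do not say whether libraries of the same number belong together. Deviations of same-numbered libraries correlated at -0.13, 0.03 and -0.00, and no library correlated best with its own number. With 3 libraries per line these values cannot decide whether the libraries were paired. The cause of these shifts in calls was not tested.

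The median of the autophagy genes with doxycycline was -0.13, and it was -0.0836 with library size alone and -0.256 to -0.0776 with single libraries left out. Without doxycycline it was -0.12, and -0.0590 with library size alone. Library size alone moved the median of all genes to 0.05. Of the 33 genes, 24 kept their sign whichever library was left out and 9 did not. Other scalings turned the sign of Atg9a only. In all doxycycline contrasts run, 0 autophagy genes were called. With 3 libraries per line, whether Sqstm1 was called rested on the tool or on which shNS libraries were used. The size of the Uvrag difference rested on shNS replicate 2, and Optn and Wipi1 are limited by their counts.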
